A study of Drosophila melanogaster with 2 samples.

Results

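The genes described here are 10 regulators of the Drosophila cell cycle, chosen by name: CycE, Cdk4, CycD, stg, CycA, CycB, E2f1, Rbf, dap and fzr, out of 13945 protein-coding genes on the 6 main chromosome arms. The data are lists of binding sites (peaks) of the zinc finger transcription factor Klumpfuss (klu), found by chromatin immunoprecipitation and sequencing (ChIP-seq). Whole embryos aged 0 to 24 h carried a transgene that makes klu fused to eGFP, and the fused protein was pulled down from sonicated chromatin with an antibody against GFP. There were 2 biological replicates in 1 group, so the data allow no comparison between conditions and no test between groups, and a control library was not analysed here. The strain is labelled as an insertion targeting klu, and the labels do not say what drives its expression. Because whole embryos mix all cell types and ages, a peak bound in few cells cannot be told apart from a peak bound weakly in many. A peak was counted for a gene when its summit, the base of highest signal, lay within 1 kb of an annotated transcription start or inside the gene.

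Progress through the cell cycle is driven by kinases that are active only when bound to a cyclin. CycD with Cdk4, and CycE with its own kinase, push cells from G1 into DNA replication, in part by inactivating the retinoblastoma protein Rbf, which otherwise holds back the transcription factor E2f1. CycA and CycB act at the entry into mitosis, which the phosphatase string (stg) triggers in the fly embryo, while dacapo (dap) inhibits the CycE kinase and fizzy-related (fzr) directs the degradation of mitotic cyclins so that cells can stop dividing. In the fly, klu is known from neural stem cells, where it helps to keep them dividing.

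The DNA under 3 of the peaks described below is shown first. The stretches are each centred on a summit and run along the plus strand of the dm6 assembly, read from the RefSeq genome of that build. They stand for a peak inside CycE, a peak inside E2f1, and the strongest peak beside any of the 10 genes, just past the 3′ end of fzr. Capitals mark the longest unbroken run of A and T in each stretch.
CycE intron, chr2L:15746963-15747163: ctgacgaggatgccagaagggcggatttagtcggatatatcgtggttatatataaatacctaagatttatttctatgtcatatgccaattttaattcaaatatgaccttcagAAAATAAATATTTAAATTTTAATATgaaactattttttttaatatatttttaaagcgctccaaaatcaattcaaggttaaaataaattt
E2f1 intron, chr3R:21627833-21628033: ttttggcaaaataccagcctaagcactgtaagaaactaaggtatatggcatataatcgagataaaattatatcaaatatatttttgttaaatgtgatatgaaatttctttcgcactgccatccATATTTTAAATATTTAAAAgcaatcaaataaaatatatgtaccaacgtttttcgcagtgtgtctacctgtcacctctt
past the 3′ end of fzr, chrX:4666909-4667109: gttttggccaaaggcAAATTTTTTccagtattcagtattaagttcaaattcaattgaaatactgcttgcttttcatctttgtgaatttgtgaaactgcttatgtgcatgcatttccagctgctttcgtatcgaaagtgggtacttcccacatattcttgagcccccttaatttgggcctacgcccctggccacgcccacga
The A/T run at CycE was 25 bases long and began 12 bases to the right of the summit, and 96.0% of pooled peaks had a shorter one. The run at E2f1 was 19 bases long, longer than that of 86.4% of pooled peaks. The run at fzr was 9 bases long, longer than that of 22.0%. The median over all pooled peaks was 12 bases.

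Peaks were counted for 3 of the 10 genes. In the pooled list, which the submitters made from both replicates and whose peaks all score at least 830 out of 1000, CycE and Cdk4 each had a summit close enough to a start. Those are 2 of 10 genes, against 16.1% of all protein-coding genes. CycE and E2f1 had a summit inside the gene, 2 of 10 against 8.83%. Together 3 of the 10 genes had either kind, against 19.0% of all genes, and E2f1 was the 1 gene that had the second kind without the first, against 2.96% of all genes. The remaining 7 genes, CycD, stg, CycA, CycB, Rbf, dap and fzr, had neither. With 10 genes and no test, these counts are a description and set the genes neither above nor below the background.

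The counts were the same in the conservative list, the submitters' stricter list from both replicates, with 2 of 10 genes within 1 kb of a start against 13.1% of all genes. There, 2 of 10 had a summit inside the gene against 7.13%, and 3 had either against 15.5%. The replicate lists differed from each other. In the list of replicate 2, 2 of 10 genes had a summit within 1 kb against 14.9% of genes, 2 had one inside the gene against 7.41%, and 3 had either against 17.4%. In the list of replicate 1 no gene of the 10 had a summit within 1 kb, against 8.96%, and E2f1 was the 1 gene with a summit inside it, against 5.03%. The share of all genes with either kind was 10.9% in replicate 1.

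The replicates also differed across the genome, which bears on each of the values below. The pooled list held 3087 peaks on the main arms, the conservative list 2386, replicate 1 held 1511 and replicate 2 held 2561. Of the pooled peaks, 41.3% overlapped a thresholded peak in both replicates and 30.9% overlapped one in replicate 2 alone. The signal of a peak is the submitters' own value, and neither its scale nor whether it is shared by the lists is stated. Across 2989 pooled peaks found in both replicates' ranked lists, the signal in replicate 2 was a median of 1.39 times that in replicate 1, with quartiles of 1.04 and 1.91. Since peaks come without read counts, the sequencing depth is unknown. Ratios between the replicates are therefore read only against that median.

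**Figure D1:**
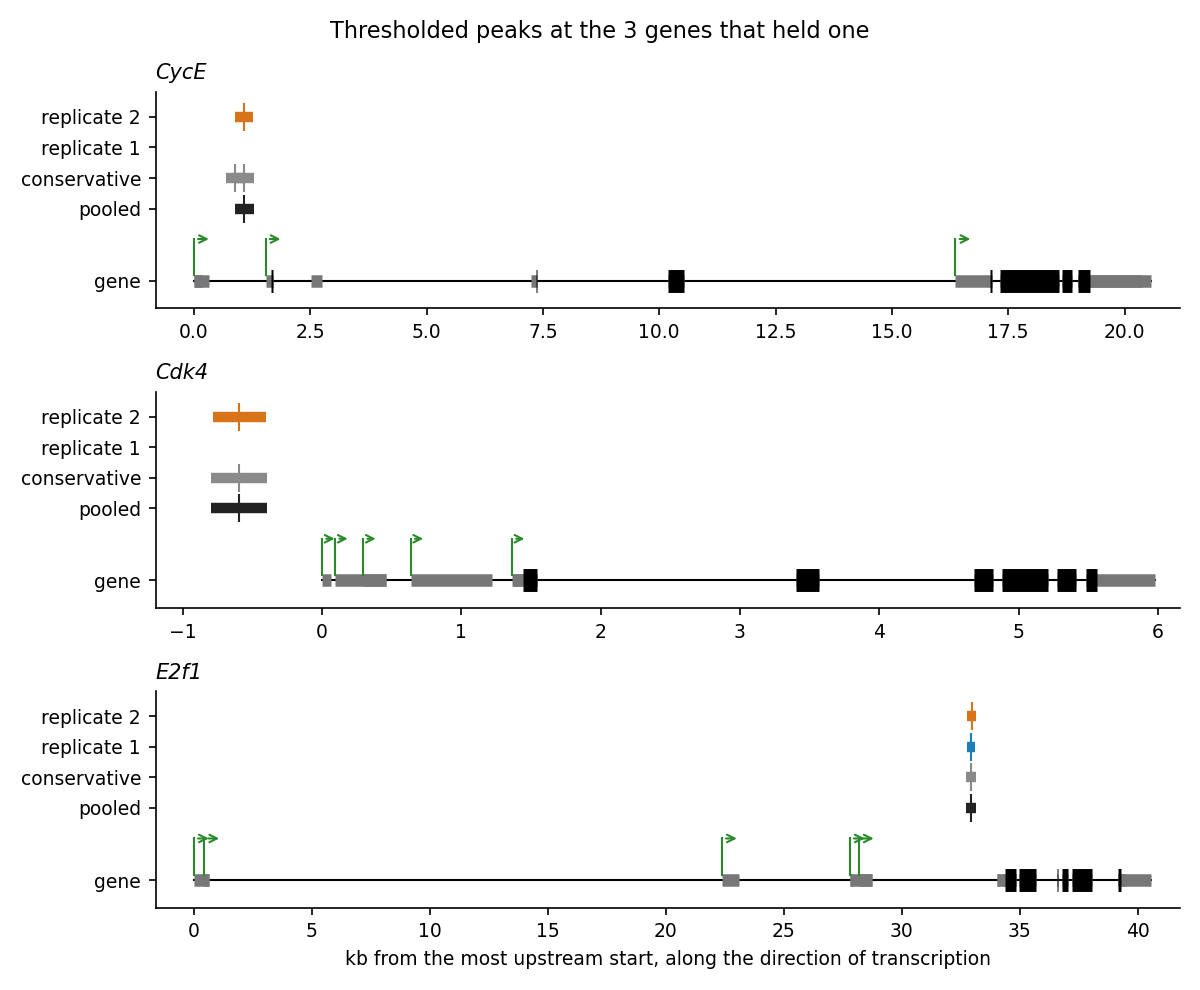
Position of thresholded peaks at CycE, Cdk4 and E2f1, in kb from the most upstream start along the direction of transcription. Coloured bars are peaks in each list and thin ticks their summits, black boxes are coding exons, grey boxes untranslated exons and green arrows starts. The CycE peak lies between the first 2 starts, the Cdk4 peak upstream of all 5 starts and the E2f1 peak in an intron downstream of all 5 starts; replicate 1 has a thresholded peak only at E2f1.

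Among the cyclins, CycE alone had a peak counted for it. CycE (FBgn0010382, minus strand of chr2L:15727581-15748150 in dm6) spans 20570 bp and has 6 annotated transcripts from 3 distinct starts. Its pooled peak, at chr2L:15746863-15747262, had its summit in an intron of the longer transcripts at chr2L:15747063, 453 bp upstream of the second start. The signal was 38.5 in replicate 1, 123 in replicate 2 and 169 in the pooled list. Replicate 2 gave it a score of 1000, whereas in replicate 1 the overlapping peak scored 120 and stayed far under the threshold of 830. The ratio of replicate 2 to replicate 1 was 3.19, larger than at 93.8% of the 2989 pooled peaks found in both replicates' ranked lists. The pooled signal was above that of 75.2% of pooled peaks, and the replicate 2 signal above that of 77.9% of the peaks in its own list.

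The surroundings of this CycE peak held no other coding gene. The nearest start of another protein-coding gene, ND-B17, lay 4015 bp away. A noncoding RNA gene, lncRNA:CR44974, ended 63 bp from the summit, and an antisense RNA gene, asRNA:CR44866, lay 938 bp away on the other side. In the 101 bp around the summit, shown above as the middle of the CycE sequence, G and C made up 16.8% of bases, a share lower than at all but 0.745% of pooled peaks, whose median was 33.7%. The letters TTTGAA, the cell cycle homology region (CHR) motif of many mitotic genes, were present on the minus strand, the strand of CycE, 6 to 1 bases left of the summit, and 16.5% of pooled peaks held them within 50 bp. A second CycE peak, with its summit at chr2L:15747268 and 658 bp upstream of the same start, passed the threshold in the conservative list alone, at a signal of 108. In the pooled ranked list it scored 680, and in replicate 2 it scored 528 with a signal of 76.8. It overlapped the first peak, so the pair is not 2 independent sites.

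The other 3 cyclins had no peak at their starts or inside them. CycD (FBgn0010315, chrX:15906822-15909676), the G1 cyclin that partners Cdk4, had no peak within 1 kb of its start in the pooled, conservative or replicate 1 ranked lists. In replicate 2 its 1 ranked peak there scored 100, with a signal of 6.76, and lay 550 bp upstream. CycA (FBgn0000404, chr3L:11826719-11833578), a mitotic cyclin, was the 1 gene of the 10 with no ranked peak within 1 kb in any of the 4 ranked lists. Inside CycA only replicate 2 listed peaks, 3 in number, and all scored 17, the lowest score in that ranked list. CycB (FBgn0000405, chr2R:22803521-22806948), the other mitotic cyclin here, had ranked peaks near its starts with best scores of 66 in replicate 1, 141 in replicate 2 and 78 in the pooled list. All of these lay well under the threshold.

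Cdk4 (FBgn0016131, plus strand of chr2R:16579470-16585448), the kinase partner of CycD, had a peak upstream of all of its 5 starts. The summit, at chr2R:16578874, was 596 bp upstream of the first start, in the stretch between Cdk4 and Lst, whose nearer edge was 2288 bp away. Replicate 1 gave it a signal of 38.7, replicate 2 gave 43.4 and the pooled list 83.6. The ratio of replicate 2 to replicate 1 was 1.12, below the median of 1.39, and 30.3% of the 2989 pooled peaks with a ratio had a lower one. Replicate 2 scored 1000 and replicate 1 scored 800, which fell just short of the threshold. The conservative list gave it a score of 941. This was a weak peak within each list: 30.8% of pooled peaks and 11.1% of replicate 2 peaks had a lower signal. G and C made up 34.7% of the bases around the summit, near the median of all pooled peaks, and none of the 9 motifs searched was present within 50 bp.

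E2f1 (FBgn0011766, minus strand of chr3R:21620304-21660871), the activating E2F factor and the longest of the 10 genes at 40568 bp, had a peak deep in the gene. The summit lay at chr3R:21627933 in an intron, 4760 bp downstream of the nearest start, and the nearest start of another coding gene, InR, was 8612 bp away. Its signal was 47.7 in replicate 1, 69.5 in replicate 2 and 119 with both pooled. Both replicates passed the threshold, with scores of 861 and 1000, which made this the 1 peak inside or upstream of the 10 genes that both replicate lists held. The ratio of 1.46 was close to the median of 1.39, and 57.1% of pooled peaks had a lower signal. Like the CycE peak it lay in A/T-rich DNA, with 20.8% G and C within 50 bp of the summit, a share lower than at all but 4.47% of pooled peaks, and none of the 9 motifs was present there.

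E2f1 also held peaks that fell short of the threshold, which are described here after their values were seen. An intron peak with its summit at chr3R:21650854 scored 826 in the pooled ranked list, just under the threshold, and 805 in the conservative one. Its signal was 37.4 in replicate 1, 32.2 in replicate 2 and 73.5 with both pooled. Of the 2989 pooled peaks with a ratio of replicate 2 to replicate 1, 14.8% had a lower one. Its replicate scores were 415 and 41. Unlike the called E2f1 peak it was rich in G and C, at 53.5%, and carried the GAGAG motif of GAGA factor 28 to 32 bases from the summit. A peak in the 5′ untranslated region, with its summit at chr3R:21632978 and 95 bp downstream of a start, scored 213 in the pooled ranked list and 599 in the conservative one. In all, 45 pooled ranked peaks lay inside E2f1, or 1.11 per kb, against a median of 1.06 per kb over genes.

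Rbf (FBgn0015799, chrX:797090-801479), the retinoblastoma protein that restrains E2f1, had no thresholded peak. Its best ranked peak within 1 kb scored 121 in the pooled list, 78 in the conservative list, 13 in replicate 1 and 17 in replicate 2. The 13 and 17 are the lowest scores in the ranked lists of replicate 1 and replicate 2. The mitotic trigger stg (FBgn0003525, chr3R:29251826-29255800) had a best score of 48 in the pooled list, at a signal of 51.9 and 580 bp upstream. Its scores were higher in the other lists, at 400 in the conservative list, 319 in replicate 1 and 181 in replicate 2, and all were below the threshold. The signal of the best stg peak was 23.8 in replicate 1 and 28.2 in replicate 2, which are not ranked here because no shared scale is stated. The best E2f1 score was also higher in replicate 1, at 261 against 86, but the scores came from different peaks. The replicate 1 peak was 96 bp downstream of a start and the replicate 2 peak 828 bp upstream of another. At the first of these sites the overlapping replicate 2 peak scored 46. For dap and fzr the best score was higher in replicate 2. The best score was also higher in replicate 2 at CycE, Cdk4 and CycB, and CycD had a ranked peak in replicate 2 alone. At CycE and CycB the best peaks of the replicates were different peaks. At Rbf both scores were the lowest of their lists, so they give no order. The inhibitor dap (FBgn0010316, chr2R:9712321-9716256) scored 42 in replicate 1, 294 in replicate 2 and 74 with both pooled, and fzr (FBgn0262699, chrX:4667290-4679537) scored 13, 393 and 125. The dap scores of the replicates came from different peaks, 795 bp downstream of the start in replicate 1 and 35 bp downstream in replicate 2. Their signals were 19.2 and 7.37. The fzr score of 13 is the lowest in the replicate 1 ranked list.

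**Figure D2:**
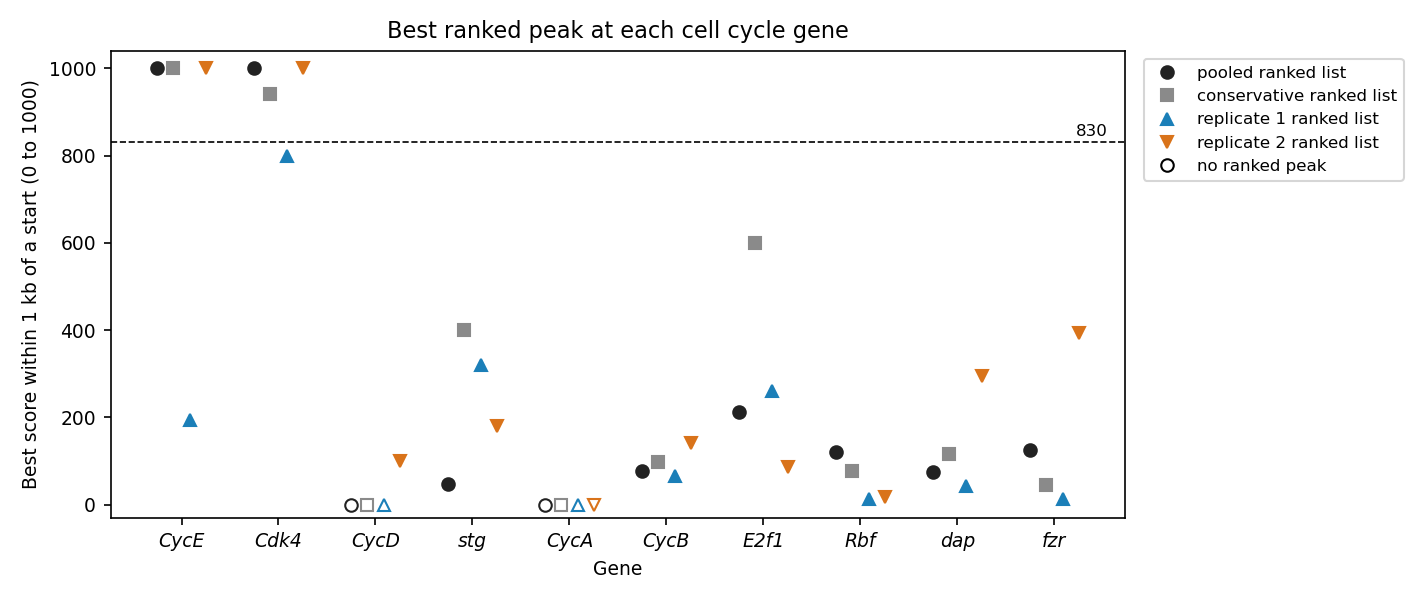
Highest score of any ranked peak within 1 kb of a start of each gene, in the pooled, conservative, replicate 1 and replicate 2 ranked lists, on an axis from 0 to 1000. The dashed line is the threshold of 830 and open symbols at 0 stand for no ranked peak. CycE and Cdk4 pass the line in 3 of the 4 lists, and the other 8 genes pass it in none.

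Set among all genes, CycE and Cdk4 sat at the highest score of 1000 in the pooled ranked list, and the others of the 10 at 213 or below. Within 1 kb of a start, the median best score over the 10 genes was 99.5 in the pooled ranked list and 101 over all genes, with a gene without any peak counted as 0. The medians were 108 and 77 in the conservative list, 54 and 44 in replicate 1, and 161 and 38 in replicate 2. In the pooled list CycE and Cdk4 were above 85.8% of genes and tied with the rest at 1000. E2f1 was above 67.8%, fzr above 56.0%, Rbf above 55.2%, CycB above 41.9%, dap above 40.3% and stg above 28.5%. CycD and CycA had no ranked peak there, like 16.9% of all genes.

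A lower score of 540 was tried in place of 830. In the pooled ranked list 2 of the 10 genes then had a summit within 1 kb, against 19.9% of all genes. In the conservative ranked list 3 did, with E2f1 added, against 17.0%. In replicate 1 it was 1, Cdk4, against 11.3%, and in replicate 2 it was 2 against 18.3%.

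**Figure D3:**
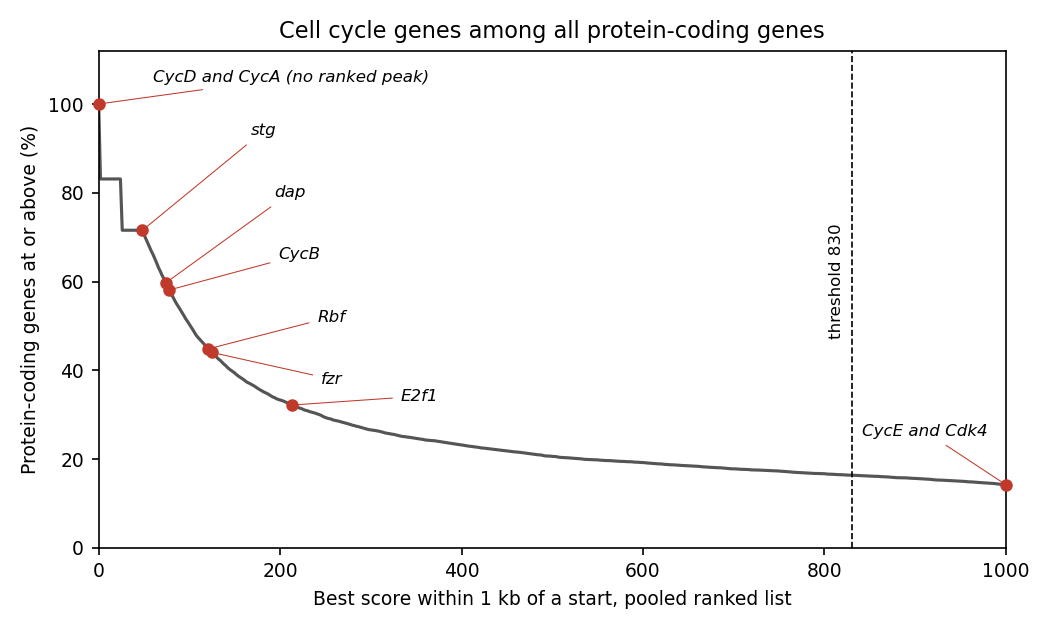
Share of protein-coding genes (%) whose best score within 1 kb of a start in the pooled ranked list was at or above the value on the x axis (0 to 1000). Red points mark the 10 genes and the dashed line the threshold of 830. CycE and Cdk4 sit at 1000, E2f1 at 213, fzr at 125, Rbf at 121, CycB at 78, dap at 74 and stg at 48, and CycD and CycA have no ranked peak.

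The number of annotated starts moved with the share of genes counted, and its part in the counts was not tested. Of all genes with 1 start, 12.2% had a pooled summit within 1 kb, and none of the 4 cell cycle genes with 1 start (CycD, CycA, Rbf and dap) did. Among genes with 2 starts the share was 23.0%, and neither stg nor fzr had one. Among genes with 3 or more starts it was 35.7%, and 2 of 4 had one, CycE and Cdk4 but not CycB and E2f1.

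Peaks also lay just outside 3 of the genes, past their 3′ ends, a position picked out after the values were seen; those past CycB and fzr had a higher pooled signal than the 3 peaks counted above, and those past Cdk4 a lower one. A pooled summit lay within 1 kb past the 3′ end of Cdk4, CycB and fzr, 3 of 10 genes, against 3.15% of all protein-coding genes. Among the wider list of cell cycle genes described below, it was 3 of 75. The peak past CycB had its summit at chr2R:22802940, 581 bp past the gene's end and 760 bp past the end of blw, which is transcribed towards CycB. No coding start was near it: the nearest belonged to CycB itself at 3363 bp, followed by blw at 3841 bp. Its signal was 203 in replicate 1, 235 in replicate 2 and 437 with both pooled, each scored 1000, and 96.0% of pooled peaks were weaker. Within 50 bp of its summit lay GTGGGCG, a match to the binding motif of the EGR family to which klu belongs, as in 1.91% of pooled peaks, and also TTTGAA.

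The peak past fzr, the third sequence shown above, had its summit at chrX:4667009, 281 bp past the end of fzr and 309 bp upstream of the start of CG3009. Its signal reached 238 in replicate 1, 331 in replicate 2 and 568 with both pooled, all scored 1000, and 97.8% of pooled peaks were weaker. None of the 9 motifs lay within 50 bp of this summit. Farther out, the stretch shown holds 1 GTGGGCG, read on the minus strand near its right end, and 1 TTTGAA. Within 100 bp, 3.56% of pooled peaks held GTGGGCG and 28.1% held TTTGAA. Past the end of Cdk4 there were 2 adjoining peaks, 551 and 752 bp beyond it, at the start of the ribosomal protein gene RpLP2. The first was 130 bp from the RpLP2 start and reached a signal of 16.5 in replicate 1, 57.4 in replicate 2 and 66.1 with both pooled. Both scored just above the threshold in the pooled list, at 843 and 842, and both scored 1000 in replicate 2, the second at a signal of 8.57. The same replicate 1 peak, with a score of 30, overlapped both, so its signal of 16.5 is not particular to the first.

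**Figure D4:**
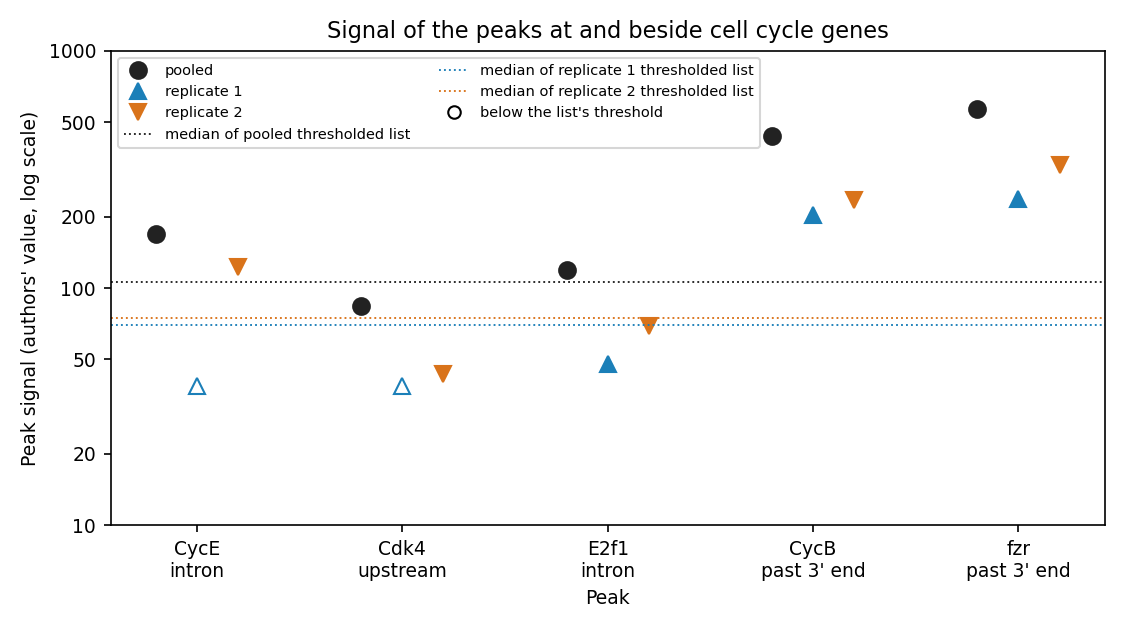
Signal of 5 peaks at or beside cell cycle genes (authors' value, log scale) in the pooled list and in each replicate, with dotted lines at the median signal of each thresholded list. Open symbols are peaks below their list's threshold. The peaks past CycB and fzr lie above the median line in the pooled list and in both replicates, and the replicate 1 values at CycE and Cdk4 are below the threshold at 38.5 and 38.7.

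For the genes with no peak counted, the closest pooled peak was usually at another gene's promoter. It lay 4076 bp past the end of CycA at the ribosomal protein gene RpL10Ab, with a signal of 38.4 in replicate 1, 88.0 in replicate 2 and 126 with both pooled. For CycD it was 38806 bp past the gene at Gapdh2, a glycolytic enzyme gene, with a pooled signal of 464. That peak overlapped one in replicate 2, at a signal of 251, and none in replicate 1 or the conservative list. For stg it was 31696 bp away at eEF1gamma, a translation elongation factor gene, with a signal of 162, and for Rbf 31850 bp away at RpL22, with a signal of 96.6. The gap was widest at dap, where the closest pooled peak was 123397 bp upstream, 126 bp from the start of CG1827, with a signal of 187. In replicate 1 the overlapping peaks for CycA, stg and Rbf scored 41, 818 and 186, all below the threshold. The one for dap scored 1000. Measured from a start, the closest pooled summit was a median of 8100.5 bp away for the 10 genes and 11298 bp for all genes, with quartiles of 3274 and 30028 bp.

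The motif search covered 9 motifs within 50 bp of each summit, on both strands, and each motif was scored as present or absent at a peak. At the 3 pooled peaks counted for the 10 genes, TTTGAA at CycE was the 1 match. Neither EGR-type motif, GTGGGCG or GTGGGTG, was present, as they were in 1.91% and 2.72% of all pooled peaks. The E2F sites TTTGGCGC, TTTCGCGC and TTTCCCGC, which were in 0.648%, 0.389% and 0.518% of pooled peaks, were also not among these letters. The same held for TATCGAT, the DNA replication-related element, in 2.92%, for GAGAG in 10.7%, and for CAGGTAG, the Zelda motif, in 0.421%. Of all pooled peaks, 33.2% held at least 1 of the 9.

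A wider list of 75 cell cycle genes, chosen with earlier results of these data known, places the 10 beside the rest of the machinery. Of these, 18 (24.0%) had a pooled summit less than 1 kb from a start and 8 had one inside the gene, 20 genes in all (26.7%). The shares of all protein-coding genes were 16.1%, 8.83% and 19.0%. The strongest peak lay nearer to the gene's own start than to any other coding start in 9 of the 20. In 12 of the 20 it was in both replicate lists, in 5 in that of replicate 2 alone, in 0 in that of replicate 1 alone, and in 3 in neither. The median pooled signal over these peaks was 174, from 63.4 to 577.

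By role the counts of genes with either kind of peak are small, were not tested and stand beside the same 19.0% of all genes, so they do not rank the roles. No other cyclin had a peak: 0 of 8 further cyclin genes did, which leaves CycE as the 1 cyclin with one. Among other cyclin-dependent kinases and Cks subunits it was 1 of 9, Cdk12, a kinase of transcription elongation. None of 10 spindle checkpoint and separase genes had a peak. The SCF ubiquitin ligase had 3 of 5 (SkpA, ago and Cul1), the checkpoint kinases 3 of 5 (mei-41, tefu and lok), and the mitotic kinases and phosphatases 6 of 12 (trbl, SAK, gwl, aurA, mts and polo). The licensing and growth group had 2 of 3, dup, which loads the replicative helicase, and geminin, its inhibitor. The anaphase-promoting complex, which fzr activates, had 3 of 13 (APC7, Cdc16 and lmgA).

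The E2F, Rb and Myb-MuvB group, to which E2f1 and Rbf belong, had 2 of 10. Dp, the dimer partner of E2f1, had 3 pooled summits within 1 kb of its starts, the strongest 217 bp upstream of one, with a signal of 156 in replicate 1, 166 in replicate 2 and 315 with both pooled. Both replicates were thus higher at Dp than at E2f1. The peak counted for lin-52, a MuvB subunit, was the strongest of the list at 577, with 215 in replicate 1 and 356 in replicate 2, and it lay 33 bp from the start of CG15771, nearer than to lin-52. Peaks nearest to the gene's own start included trbl, an inhibitor of stg, at 211, Cdc16 at 173, the mitotic kinase aurA at 161, polo at 85.7 and ago, which targets CycE for degradation, at 70.7. At ago, replicate 1 gave 23.6 and replicate 2 gave 54.5. Cdk12 and SAK shared 1 peak, with a signal of 195, so their counts are not independent. Peaks counted for APC7 (410.1), mei-41 (299.8), SkpA (237), tefu (201) and gwl (174) lay nearer to the start of a neighbouring gene, as did those of mts (93.6), lok (86.5), dup (79.1) and lmgA (63.4). The peaks of geminin (74.2) and Cul1 (69.3), pooled signals as in the previous sentence, were nearest to their own starts.

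**Figure D5:**
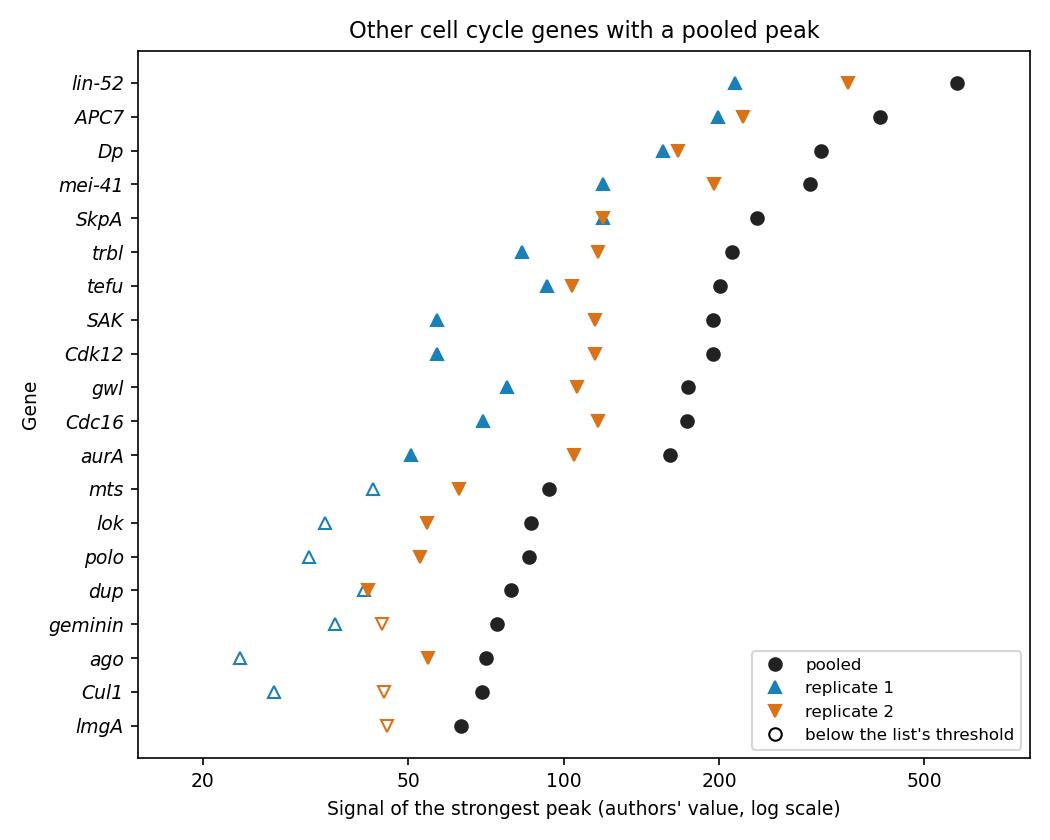
Signal (authors' value, log scale) of the strongest pooled peak at each of the 20 further cell cycle genes that had one, in the pooled list and in each replicate; open symbols are below the list's threshold. Pooled signals run from 63.4 at lmgA to 577 at lin-52, and the replicate 1 symbols are below the threshold at the genes from mts downwards, with no replicate 1 peak at lmgA.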

How the data were processed

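Peaks were lists of binding regions in dm6 coordinates, 8 in all: for the pooled replicates, for a conservative set and for each of the 2 replicates, 1 ranked list and 1 list thresholded on reproducibility. Per the file headers and the deposited notes, each replicate's lists came from its own alignment and 1 further file that both share, and the lists of the series came from both alignments. The sources used here do not name the aligner or peak caller. Scores in the deposited column 5 reach 1000, and every thresholded peak scores at least 830. The deposited signal (column 7) is a value per peak set by the authors, used to describe or rank peaks within a list. Ratios of signal between the replicates were set only against the ratio over the pooled peaks found in both replicates' ranked lists, since a shared scale is not stated.

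Starts and gene ends came from Ensembl release 115 (BDGP 6.54), and sequence from the RefSeq Release 6 genome, whose arm lengths cover all peak ends. Peaks in different lists were matched by an overlap of at least 1 bp. Scripts used Python 3.11.15, pandas 2.3.3, numpy 2.4.6 and matplotlib 3.10.9, and were tested on simulated peaks.

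All 10 genes are named. Of the 75 further genes, the 20 with a peak are named, the highest number the rule allows. One gene of that list, lmg, was matched by synonym to lmgA. The members and lists were chosen with earlier results of these data known. With 1 group and no control analysed, no test was run. Alternatives were the other lists, a lower score, peaks above the median signal, other distances and start definitions, and motif windows.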

Additional observations from a re-analysis of the deposited data

How the results depend on the processing

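The count of cell cycle genes with a peak near a start (1 kb), 2 in the pooled list, ranged from 0 to 2 with either replicate's list alone: replicate 2's list gave CycE and Cdk4, replicate 1's list neither. The share of all genes, 16.1%, was then 14.9% and 8.96%. The count was 1 with only peaks above the median signal (CycE; 10.5% of all genes), 1 within 500 bp (CycE; 13.9%), 1 from the most upstream start only (Cdk4; 14.5%), and 4 when each peak went to its nearest start at any distance (CycE, Cdk4, CycB and E2f1; 15.7%). It stayed 2 in the conservative list (13.1%), at a score of 540 (19.9%), with any base of the peak in place of the summit (16.8%), and within 2 kb (19.9%). The count with a summit inside the gene, 2 (8.83% of all genes), ranged from 1 in replicate 1 (5.03%) to 2 in replicate 2 (7.41%). The number of peaks counted for the genes, 3, ranged from 1 to 3 over the replicate lists and was 5 at a score of 540. It was 4 in the conservative list, where CycE had 2, and 4 by nearest start, where CycB was added. It was 2 with only peaks above the median signal and 2 within 500 bp. With the other settings it stayed 3. The number of the 3 pooled peaks with any of the 9 motifs was 1 within 50 bp and 2 within 100 bp. At 100 bp, CAGGTAG at E2f1 was added to TTTGAA at CycE. The cause of these differences was not tested. No paired analysis was possible because the samples form 1 group. The lists give no read counts, so what depth limits cannot be stated, and 2 replicates give no error for a single peak.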
